A study of Mus musculus with 32 samples.

Results

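The genes followed here set the pace of the G1 phase of the cell cycle. They are the D-type cyclins Ccnd1, Ccnd2 and Ccnd3, the kinases Cdk4 and Cdk6, the kinase inhibitors Cdkn1b, Cdkn1c and Cdkn2c, the growth arrest gene Gadd45g, and Cks1b, a small subunit of cyclin-dependent kinases. They were chosen by symbol and are 10 of the 32285 genes in the deposited count matrices. Their levels were taken in 6 overlapping sets of cells, defined by at least 1 UMI (a captured RNA molecule) of Sox2, Eomes or Neurod6, each divided by whether Top2a was also detected. All 10 passed the filter on low counts in all 6 sets, with between 14 and 47451 UMIs per gene, library and set.

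G1 is the part of the cell cycle in which a cell either commits to another round of division or leaves the cycle. D-type cyclins bind Cdk4 or Cdk6, and the resulting kinases phosphorylate the RB protein and so free E2F transcription factors. Inhibitors of the INK4 family, such as Cdkn2c (p18), bind Cdk4 and Cdk6, whereas those of the CIP/KIP family, Cdkn1b (p27) and Cdkn1c (p57), bind cyclin and kinase complexes more widely. In the embryonic cortex, radial glia express Sox2 and divide at the ventricle, many of their daughters become intermediate progenitors that express Eomes, and excitatory neurons that have left the cycle express Neurod6. Top2a encodes a topoisomerase that is made mostly in S, G2 and M phase, so a cell without a Top2a UMI may be in G1, outside the cycle, or too shallowly sequenced to show it.

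The study took the dorsal telencephalon, the source of the cerebral cortex, from C57BL/6J mouse embryos at 4 stages, E12.5 and E14.5 during early neurogenesis and E16.0 with E17.5 later (E for embryonic day), and prepared single-cell libraries from it with the 10x Genomics v2 3' chemistry. Wild-type (WT) embryos were compared with Chd8+/- embryos (Chd8 het here), which carry 1 intact copy of a chromatin remodelling gene. Each of the 8 groups held 4 libraries, M1 and M2 from males, F1 and F2 from females, each from the tissue of 1 embryo, and medial tissue with the future hippocampus was cut away. WT and het embryos were matched by litter and sex.

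The 32 libraries held between 14710694 and 66499864 UMIs and between 2399 and 6951 cells after filtering, 138226 cells in all. Sox2 was detected in 54203 cells (39.2%), Eomes in 31997 (23.1%) and Neurod6 in 85150 (61.6%). Chd8 itself was lower in the het library in 15 of 16 pairs. The exception was the library labelled het F1 at E17.5, at 70.6 CPM beside 61.2 in WT F1. Without it, 57 of the 60 stage differences of members in het libraries kept their side of the threshold, and Ccnd2 in Eomes-detected cells without Top2a (0.27) and Ccnd3 in Eomes- and Neurod6-detected cells with Top2a (-0.46 and -0.48) no longer passed in edgeR. Without Top2a, 8 radial glia markers summed to between 3164 and 10563 CPM in Sox2-detected cells and to between 634 and 1587 CPM in Neurod6-detected cells, and 7 excitatory neuron markers to between 641 and 3162 CPM and between 5074 and 7692 CPM. With Top2a, Neurod6-detected cells held 1721 to 5847 CPM of the radial glia markers beside 1793 to 3521 CPM of the neuron markers, so their name does not describe neurons alone. The radial glia list includes Sox2 and the neuron list Neurod6, so these sums follow in part from how the sets were defined. The list of cycling markers used below likewise includes Top2a. Between 78.5% and 96.1% of Eomes-detected cells without Top2a, and 67.1% to 91.6% of Neurod6-detected cells with it, also held another of the 3 markers. As a measure of free RNA, 17.49% of 263 microglia (95% exact binomial interval 13.1 to 22.6%) held a Neurod6 UMI, 8.75% a Sox2 UMI and 4.18% an Eomes UMI (2.11 to 7.36%). The median over libraries of their median depth was 7443 UMIs. The 559 endothelial cells, at 14754 UMIs by the same measure, held them in 26.3%, 12.3% and 7.51%. Top2a was found in 21.3% and 39.0%, but these cells can divide, so its background was not measured. Comparisons between classes were therefore made in cells with UMIs for exactly 1 of the 3 markers, called Sox2-only (32844 cells), Eomes-only (2578) and Neurod6-only cells (53729) below. Eomes-only cells are 1.87% of all cells, a share below that of microglia with an Eomes UMI, and how many of them carry Eomes as free RNA was not tested. Depth fell with stage, since the median UMIs per cell of a WT library lay between 8627.5 and 10511.5 at E12.5 and between 4085 and 5438 at E17.5. At E17.5, 3 libraries (WT M1, het M1 and het F1) lay between -25.7 and -23.4 on the first principal component of the Neurod6-detected cells, with WT F1 at -6.22 and the other 4 between 12.7 and 30.1. These 4 libraries at negative values also carry another kind of code in the labels than the rest of the stage. At most 61 barcodes were shared between any pair of libraries, 1.08% of the smaller one.

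The promoters of Gadd45g and Cdkn1b are shown. Gadd45g gave the largest differences of Eomes-only cells from Sox2-only and from Neurod6-only cells. Cdkn1b was the only one of the 3 inhibitors whose rise passed the test in all 6 sets of WT libraries, although 4 of these calls were lost without WT M1 of E17.5. Both promoters are from RefSeq on build GRCm38.p6, on the plus strand, 5' to 3', and end at the base before the annotated start. Capitals mark CCAAT, the box bound by the NF-Y factor.
Gadd45g, chr13:51846425-51846674: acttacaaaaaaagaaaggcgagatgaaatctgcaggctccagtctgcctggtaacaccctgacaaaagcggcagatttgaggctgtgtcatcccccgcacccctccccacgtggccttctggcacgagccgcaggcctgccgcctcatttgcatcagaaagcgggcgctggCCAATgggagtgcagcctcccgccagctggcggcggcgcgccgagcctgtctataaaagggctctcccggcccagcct
Cdkn1b, chr6:134920151-134920400: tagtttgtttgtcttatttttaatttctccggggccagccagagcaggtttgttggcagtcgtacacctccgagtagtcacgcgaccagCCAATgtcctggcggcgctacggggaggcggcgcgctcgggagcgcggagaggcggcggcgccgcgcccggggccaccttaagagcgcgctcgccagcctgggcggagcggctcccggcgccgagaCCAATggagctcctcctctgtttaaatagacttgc
In these windows of 250 bases CCAAT stood 78 bases before the start of Gadd45g, and 161 and 35 bases before that of Cdkn1b. The RefSeq table held 7 of the 10 genes, and CCAAT was found on either strand in 4 of them (Ccnd3, Cdkn1b, Cks1b and Gadd45g), against 33.8% of all 32851 promoter windows. Other words were searched in the same way on both strands. TTTGAA, the CHR element of late cell cycle genes, was found in Cks1b alone and in 15.99% of all windows. The E2F words TTTGGCGC, TTTCCCGC, TTTCGCGC and TTTGCCGC matched none of the 7 genes and 1.86% of windows. The E-box CAGATG matched none and 14.4%. TGGGAA, the word of the Notch effector RBPJ, matched Cdk4 and 21.6%. CTTTGAA and CTTTGAT, words of the TCF factors, also matched Cdk4 and 7.48%, and the former overlaps TTTGAA. A match describes the letters only.

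The first comparison followed WT libraries from E12.5 to E17.5. The codes in the labels begin differently between stages. Stage and whatever these codes stand for therefore cannot be told apart. Cdk6 and Cdkn1b rose in all 6 sets, Ccnd1, Ccnd3 and Cdkn1c fell in all 6, and Cdkn2c rose in the 3 Top2a-detected sets and in Eomes-detected cells without Top2a. Gadd45g fell in Eomes- and Neurod6-detected cells, and neither of its Sox2-detected sets passed the test in WT. Some of these calls, those of Cdkn1b among them, were lost under other settings or without single libraries, as given below. Log2 differences use TMM scaling and CPM do not, so small differences of the 2 can differ in sign. Calls are at an adjusted p under 0.05 in edgeR's quasi-likelihood test over all genes. In the sets without Top2a, 7 members were called in Sox2-detected cells against 59.5% of all genes tested, 9 in Eomes-detected cells against 47.8%, and 9 in Neurod6-detected cells against 56.7%. With Top2a, 8 were called against 52% in Sox2-detected, 7 against 38.8% in Eomes-detected and 8 against 41% in Neurod6-detected cells. Between 38.8% and 59.5% of all genes thus moved as well, and the counts of members are to be read against those shares. The median log2 difference of the members lay between -0.79 (Neurod6-detected, no Top2a) and -0.05 (Sox2-detected, Top2a detected), beside 0.02 to 0.06 over all genes tested. In bulk sums of this kind, fewer cells of a type and less RNA per cell cannot be told apart.

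**Figure D1:**
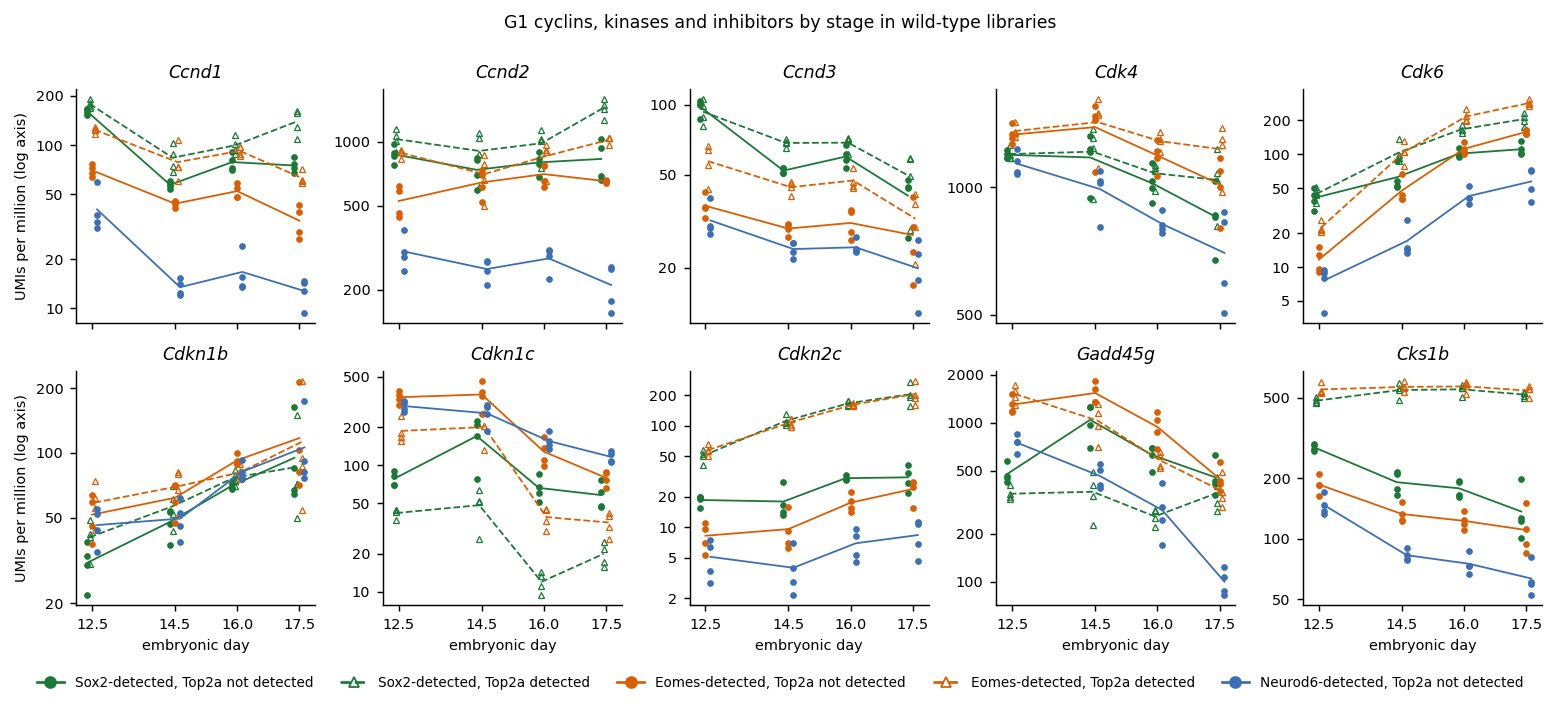
Level of each gene, in CPM on a log axis, against embryonic day in WT libraries. Points are libraries (4 per stage) and lines join their means in 5 of the 6 cell sets (Neurod6-detected cells with Top2a are left out), and Cdk6 climbs in each of the 5 while Cdkn1c ends lower in each.

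Among the cyclins, Ccnd1, the D cyclin that growth factor and Wnt signals induce in many tissues, stood at 152, 167, 165 and 158 CPM (the UMIs of a gene scaled to a common total per library and set) in M1, M2, F1 and F2 of the Sox2-detected cells without Top2a at E12.5. By E14.5 it stood at 56.1, 60.4, 53.8 and 58.0 CPM, then at 91.1, 70.3, 72.6 and 80.7 in the E16.0 libraries and 71.9, 67.1, 76.5 and 84.2 in those of E17.5. Most of the drop thus lay between the first pair of stages, and no later library reached the E12.5 range. From E12.5 to E17.5 Ccnd1 fell by 1.33 ± 0.14 on the log2 scale in this set (SE, 4 against 4 libraries, adjusted p = 2.92e-09 in edgeR). The log2 difference was -0.47 ± 0.13 in Sox2-detected cells with Top2a and -1.76 ± 0.29 in Neurod6-detected cells without it. With Top2a the call depended on the definition of the sets. Sox2-detected cells gave -0.17 (adjusted p = 0.474 in edgeR) in cells of exactly 1 class. They gave -0.49 (0.0686) with classes assigned after thinning cells to 2000 UMIs, where shallower cells were left out. Neurod6-detected cells gave 0.30 (0.658) in cells of exactly 1 class and -0.48 (0.316) with at least 2 UMIs of the marker, in edgeR. Ccnd1 lies at chr7:144929931-144939925 on the minus strand of GRCm38 and overlaps LTO1 on the other strand (22927 UMIs beside 80170 of its own). No source says whether counting used strand.

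Ccnd2, the D cyclin of self-renewing cortical progenitors, passed the test in 2 of the 6 sets, in opposite directions. In Sox2-detected cells with Top2a it went from 1152, 1008, 1061 and 898 CPM at E12.5 to 1431, 1587, 1270 and 1498 at E17.5, with no overlap, a rise of 0.38 ± 0.13 on the log2 scale (adjusted p = 0.0171 in edgeR). In Neurod6-detected cells without Top2a its mean went from 304 ± 57.1 to 211 ± 51.7 CPM (SD, n = 4), a log2 difference of -0.62 ± 0.18, although the libraries overlapped. The other 4 sets did not pass. Without E12.5 WT F2 or without E17.5 WT M2 the rise in Sox2-detected cells with Top2a was 0.31 and 0.29 and did not pass (adjusted p = 0.0745 and 0.0971 in edgeR), nor did it with no filter on low counts (0.31, 0.0611). The same cells without Top2a (-0.29, adjusted p = 0.0551) passed with DESeq2 (-0.28, 0.0430), with no doublet removal (-0.34, 0.0193) and without E12.5 WT F2, E17.5 WT M2 or E17.5 WT F2 (-0.34, -0.43 and -0.38). Eomes-detected cells passed in het libraries, higher by 0.32 without Top2a (0.27 and not passing without the library labelled het F1 at E17.5) and 0.36 with it, and without Top2a also with 2 UMIs of the marker (0.32).

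Ccnd3, the third D cyclin, went from 86.5, 99.9, 101 and 104 CPM at E12.5 to 26.8, 44.0, 44.6 and 47.7 at E17.5 in Sox2-detected cells without Top2a. The library at 26.8 was M1, which stood apart at that stage. The log2 difference was -1.48 ± 0.18, against -1.03 in the same cells with Top2a and between -0.91 and -0.52 in the other 4 sets. In Eomes-detected cells without Top2a the fall (-0.52 ± 0.20, adjusted p = 0.0320 in edgeR) did not pass without any 1 of E12.5 WT M2, E17.5 WT M1 or E17.5 WT F1, and the sign turned to 0.16 in Eomes-only cells. It did not pass with thinned classes (-0.48), with at least 2 UMIs of the marker (-0.15) or without WT M1, het M1 and het F1 of E17.5, the 3 libraries that stood apart in principal components and were left out after the data were seen (-0.34). With Top2a the fall was lost in Eomes-detected cells with thinned classes (-0.50, adjusted p = 0.117) and with 2 UMIs (-0.46, 0.0864). In Neurod6-detected cells it was lost in Neurod6-only cells (-0.84, 0.125), with thinned classes (-0.53, 0.126) and with 2 UMIs (-0.18, 0.665). The gene, at chr17:47505051-47599691, overlaps Bysl on the other strand (34767 UMIs beside 56940).

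The kinases went opposite ways. Cdk6 in Eomes-detected cells without Top2a stood at 15.1, 12.7, 9.67 and 8.99 CPM at E12.5 and reached 39.9, 40.2, 67.3 and 43.3 by E14.5. The E16.0 libraries held 102, 112, 128 and 105 CPM, and those of E17.5 held 152, 164, 153 and 165. Each stage lay wholly above the one before. The gain was 3.66 ± 0.19 on the log2 scale, or 12.6-fold (adjusted p = 3.23e-16 in edgeR). With Top2a the gain in Eomes-detected cells was 11.8-fold, from 20.3 to 26.2 CPM across E12.5 libraries to 268 to 308 CPM across E17.5 libraries. In Neurod6-detected cells it was 7.04-fold without and 7.33-fold with Top2a. Sox2-detected cells gained least, 2.33-fold without Top2a and 4.27-fold with it, from 51.4, 36.8, 46.6 and 43.5 to 232, 176, 198 and 216 CPM. No E12.5 library overlapped an E17.5 library in any of the 6 sets. Cdk6 spans chr5:3341485-3531008 on the plus strand.

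Cdk4 moved less and downward. In Sox2-detected cells without Top2a it stood at 1172, 1225, 1175 and 1200 CPM at E12.5 and at 672, 859, 850 and 1034 at E17.5, a log2 difference of -0.70 ± 0.12. Neurod6-detected cells without Top2a gave -0.80 ± 0.17 (adjusted p = 0.000232 in edgeR). In the 3 sets with Top2a the difference lay between -0.33 and -0.24, and the Eomes-detected one did not pass (adjusted p = 0.104). The M1 library gave the lowest E17.5 value of Cdk4 in every set, 505 CPM in Neurod6-detected cells without Top2a against 593 to 874 in the other 3. Without it the differences in Sox2- and Neurod6-detected cells with Top2a were -0.20 and -0.21 and did not pass (adjusted p = 0.135 and 0.176 in edgeR), nor did they without E12.5 WT M2 (-0.30 and -0.31). The Neurod6-detected one was also lost without E12.5 WT F2 (-0.32) or E17.5 WT F1 (-0.33). The Eomes-detected one passed with thinned classes (-0.35), 2 UMIs of the marker (-0.33) and het libraries (-0.45). Cdk4, at chr10:127063534-127067920, overlaps Tspan31 on the other strand (103254 UMIs beside 1029343).

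Of the CIP/KIP inhibitors, Cdkn1b went up and Cdkn1c down. Cdkn1b in Sox2-detected cells without Top2a went from 38.4, 21.9, 30.03 and 33.1 CPM at E12.5 to 163, 64.7, 85.1 and 67.2 at E17.5, and in Neurod6-detected cells without Top2a from 51.7, 34.6, 43.7 and 54.7 to 175, 81.2, 91.7 and 76.3. The high E17.5 value in each set was WT M1. The log2 differences were 1.39 ± 0.27 and 1.09 ± 0.25, and those of the other 4 sets lay between 0.84 and 1.05. Without WT M1 of E17.5 the first 2 differences were 1.02 and 0.76 and still passed, whereas Sox2-detected cells with Top2a gave 0.56, Eomes-detected cells 0.60 without and 0.33 with Top2a, and Neurod6-detected cells with Top2a 0.42, and none of these 4 passed. Without the 3 E17.5 libraries that stood apart, WT M1 among them, Sox2-detected cells with Top2a (0.55, adjusted p = 0.0280) and Eomes-detected cells without it (0.60, 0.0296) passed in edgeR. Eomes- and Neurod6-detected cells with Top2a (0.33 and 0.43) did not. The call was also lost in Eomes-only cells without Top2a (0.77, adjusted p = 0.103). In Eomes- and Neurod6-detected cells with Top2a it was lost with thinned classes (0.66 and 0.59), with at least 2 UMIs of the marker (0.62 and 0.58), in het libraries (0.76 and 0.68, adjusted p = 0.0585 and 0.0895 in edgeR), and without E12.5 WT M2 (0.72 and 0.76) or F1 (0.80 and 0.86). Without E12.5 WT F2 it was lost in the Eomes-detected set (0.86). The E16.0 libraries, which do not include that WT M1 of E17.5, lay between 67.9 and 74.2 CPM in Sox2-detected cells without Top2a, above all 4 of E12.5.

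Cdkn1c, an imprinted inhibitor that marks cells leaving the cycle in several tissues, was high early and low late. Eomes-detected cells without Top2a held 388, 357, 333 and 301 CPM at E12.5 and 381, 462, 253 and 355 CPM in the E14.5 libraries. The E16.0 libraries held 168, 136, 110 and 98.6 CPM and the E17.5 libraries 65.6, 86.7, 89.1 and 76.8. The first 2 stages overlapped, and both later ones lay below them. The log2 difference from E12.5 to E17.5 was -2.22 ± 0.18, 4.67-fold lower, and in Eomes-detected cells with Top2a the level was 5.69-fold lower. Neurod6-detected cells held 2.7-fold less without and 3.66-fold less with Top2a. Sox2-detected cells without Top2a had their highest mean at E14.5 (207, 226, 77.5 and 170 CPM), and their difference between the end points was the smallest (-0.65 ± 0.25, adjusted p = 0.0267 in edgeR). It did not pass without any 1 of E12.5 WT F1, E17.5 WT M2 or E17.5 WT F2, and was 0.45 with the opposite sign in Sox2-only cells (adjusted p = 0.396). It was also lost with thinned classes (-0.20), with 2 UMIs of the marker (-0.16), in het libraries (-0.53) and without the 3 E17.5 libraries that stood apart (-0.66, adjusted p = 0.0505). With Top2a the Sox2-detected fall was lost with thinned classes (-0.75, adjusted p = 0.156).

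Cdkn2c, the INK4 inhibitor, followed Top2a. In Sox2-detected cells with Top2a it went from 58.1, 49.8, 53.0 and 40.8 CPM at E12.5 to 157, 269, 199 and 191 at E17.5, a gain of 1.91 ± 0.16 on the log2 scale (adjusted p = 3.07e-11 in edgeR). The gain was 1.74 ± 0.15 in Eomes- and 1.92 ± 0.18 in Neurod6-detected cells with Top2a. In Eomes-detected cells without Top2a levels were lower, 5.31 to 11.1 CPM at E12.5 and 15.3 to 27.8 at E17.5, and the gain was 1.43 ± 0.33. That call was lost in Eomes-only cells (1.43, adjusted p = 0.0998), and the het libraries gave 0.38 (adjusted p = 0.355, 4 against 4 libraries) in edgeR. Neither Sox2-detected (0.54, adjusted p = 0.0659) nor Neurod6-detected cells without Top2a (0.62, adjusted p = 0.198) passed in edgeR. Both passed with at least 2 UMIs of the class marker (0.82 and 1.06, adjusted p = 0.00147 and 0.0293) and without the 3 E17.5 libraries that stood apart (0.70 and 0.83, 0.0107 and 0.0424), and the Sox2-detected set passed without E17.5 WT M1 (0.69, 0.0264). The het libraries gave -0.11 and -0.29 in these 2 sets, and neither passed. Without the library labelled het F1 at E17.5 the values were 0.06 and -0.03, and again neither passed.

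Gadd45g, a stress and growth arrest gene that also marks newly committed neuronal precursors, fell with age in the 4 Eomes- and Neurod6-detected sets. Neurod6-detected cells without Top2a held 850, 638, 752 and 753 CPM at E12.5, and the E14.5 libraries held 502, 552, 387 and 405. Levels were 243, 293, 171 and 419 CPM by E16.0, and 87.4, 82.7, 106 and 123 by E17.5. The level was 8.02-fold lower at E17.5 than at E12.5 (adjusted p = 1.02e-11 in edgeR). Eomes-detected cells without Top2a first stood at 1175 to 1524 CPM, then at 1349 to 1824 at E14.5, and ended at 371 to 562 CPM, 3.16-fold lower than at the start. With Top2a the E17.5 level was 4.38-fold lower in Eomes- and 3.33-fold lower in Neurod6-detected cells. Sox2-detected cells without Top2a stood at 1255, 1257, 694 and 962 CPM at E14.5 and at 350 to 626 CPM at E17.5, and the difference between the end points did not pass (-0.28 ± 0.17, adjusted p = 0.167). It passed without WT F1 of E17.5 (-0.49, adjusted p = 0.0164), and in the het libraries Gadd45g fell in Sox2-detected cells both without and with Top2a (-0.93 and -0.55, adjusted p = 3.26e-05 and 0.00789 in edgeR). In Sox2-only cells with Top2a the E17.5 level was higher (1.26, adjusted p = 0.000222 in edgeR), with 171, 180, 553 and 391 CPM against 115 to 133 at E12.5. Gadd45g is at chr13:51846678-51848468 with no counted gene overlapping it, and the same holds for Cdkn1b, Cdkn2c and Cks1b.

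Cks1b, which helps the SCF ubiquitin ligase to degrade Cdkn1b, fell in the 3 sets without Top2a and did not pass the test in the 3 with it, in WT libraries. In Sox2-detected cells with Top2a it stood at 503, 487, 478 and 469 CPM at E12.5 and at 502, 537, 512 and 528 at E17.5, a log2 difference after TMM scaling of -0.01 ± 0.09 with an adjusted p of 0.956 in edgeR. Without Top2a the same cells went from 277, 294, 274 and 293 to 100.3, 126, 123 and 197 CPM, a log2 difference of -1.28 ± 0.18. Neurod6-detected cells without Top2a gave -1.31 and Eomes-detected ones -0.86. The het libraries, 4 of E17.5 against 4 of E12.5, gave -0.24, -0.41 and -0.57 in the Top2a-detected sets of Sox2, Eomes and Neurod6, each past the test in edgeR.

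Cell makeup moved along with these courses. In WT Sox2-detected cells without Top2a, the summed markers of interneurons went from 3.13 to 41.2 CPM at E12.5 to 225 to 746 CPM at E17.5, those of oligodendrocyte precursors from 0.851 to 1.81 to between 118 and 399 CPM, those of excitatory neurons from 853 to 1110 to between 2061 and 2321 CPM, and those of radial glia from 3164 to 3842 to between 6617 and 8252 CPM. Summed cycling markers in this set went from 510 to 636 down to between 217 and 349 CPM, and in Neurod6-detected cells without Top2a from 267 to 402 down to between 57.7 and 123 CPM. The share of WT Sox2-detected cells with a Top2a UMI had a mean of 67.7% at E12.5, 42.8% at E14.5, 47.3% at E16.0 and 33.0% at E17.5. With cells thinned to 2000 UMIs and shallower cells left out, these shares were 36.8%, 26.7%, 32.3% and 18.9%. The WT cells left out numbered 0 at E12.5 and at E14.5, 228 at E16.0 and 330 at E17.5. The part of makeup, depth and label codes in the courses was not tested.

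The second comparison asked how the genes differ between cell classes. Over the 16 WT libraries, with each library as its own block, Eomes-only cells without Top2a held 8.68-fold more Gadd45g and 3.17-fold more Cdkn1c than Sox2-only cells without Top2a. Cdkn1b and Cdk4 were also higher, by 0.37 ± 0.10 and 0.25 ± 0.04 on the log2 scale. Ccnd3 (-0.71 ± 0.12), Cdkn2c (-0.63 ± 0.19), Cdk6 (-0.48 ± 0.13) and Cks1b (-0.48 ± 0.08) were lower. In het libraries, where 5 members were called beside 27.9% of all genes, Cdkn1b (0.21, adjusted p = 0.198), Cdkn2c (-0.29, 0.341) and Cdk6 (-0.41, 0.0647) did not pass in edgeR. In the WT libraries, as designed, Ccnd2 (-0.17, adjusted p = 0.0694) and Ccnd1 (-0.03, adjusted p = 0.910) did not pass in edgeR. Both were lower and passed in the overlapping sets, at -0.34 (adjusted p = 1.81e-09) and -0.79 (2.7e-17), and under a definition added after the data were seen, in which a cell with Eomes counts as Eomes whatever else it holds, at -0.26 (0.000403) and -0.75 (7.9e-13). Ccnd2 also passed with no filter on low counts (-0.26) and without any 1 of 7 libraries (E12.5 M1 or M2, E14.5 M1, F1 or F2, E16.0 F2, E17.5 M1). These 8 called members stand beside 32.8% of all genes called in the same contrast, with a median of -0.10 for the members and -0.06 for all genes.

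Gadd45g in Sox2-only cells without Top2a stood at 243, 221, 218 and 215 CPM in the E12.5 libraries, 255, 292, 163 and 260 in those of E14.5, 138, 156, 134 and 204 in those of E16.0, and 330, 171, 488 and 331 in those of E17.5. In Eomes-only cells, in the same order, it stood at 2156, 1870, 1985 and 2774 CPM, then 2522, 3373, 2397 and 2737, then 1898, 2104, 1700 and 1988, and at last 1438, 1112, 1242 and 1029. Every Eomes-only value was above every Sox2-only value. The difference was 3.12 ± 0.10 on the log2 scale (adjusted p = 7.71e-39 in edgeR). Cdkn1c in Sox2-only cells was at 19.9, 22.1, 25.6 and 30.6 CPM at E12.5, and in Eomes-only cells at 348, 301, 275 and 386. By E17.5 the Sox2-only libraries held 44.3, 48.2, 51.3 and 11.3 CPM and the Eomes-only libraries 77.3, 30.6, 71.5 and 29.97 (6 to 13 UMIs each), and the ranges overlapped.

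**Figure D2:**
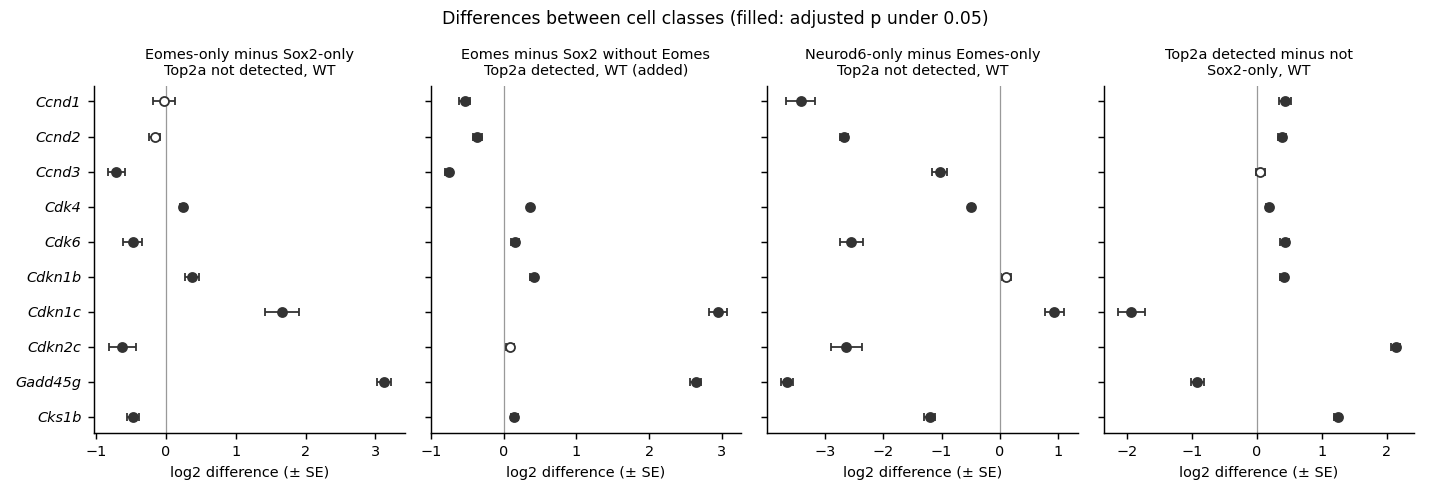
Log2 differences between cell classes over WT libraries with their standard errors, for each gene and contrast, including the definition that places each cell in 1 class by Eomes, then Sox2, then Neurod6. Gadd45g lies farthest to the right for Eomes-only against Sox2-only cells without Top2a and farthest to the left for Neurod6-only against Eomes-only cells without Top2a. For Eomes against Sox2 with Top2a, drawn under that definition, Cdkn1c lies farthest to the right and Gadd45g next. Cdkn2c and Cks1b lie to the right for Top2a detected against not in Sox2-only cells.

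With Top2a, Eomes-only cells could be compared at 2 stages only, since fewer than 20 cells per library were left at E14.5 and E17.5 (4 WT libraries at E12.5 and 3 at E16.0 were used). There Gadd45g was higher by 3.91 ± 0.16, Cdkn1c by 3.22 ± 0.84 and Cdk4 by 0.30 ± 0.06, and Ccnd3 was lower (-0.85 ± 0.20), 4 members called beside 13.1% of all genes. Ccnd2 (-0.29, adjusted p = 0.0663) and Cdkn2c (-0.38, 0.148) did not pass. Ccnd2 passed without any 1 of 10 WT libraries (-0.45 to -0.33) and Cdkn2c without any 1 of 3 (-0.58 to -0.47), and with no filter on low counts Ccnd2 (-0.43), Cdkn2c (-0.52) and Cks1b (-0.29) all passed. In het libraries Ccnd3 was at -0.45 and did not pass (adjusted p = 0.0702). The Cdkn1c difference was 2.56 and did not pass without E16.0 WT M1 (adjusted p = 0.280 in edgeR). That of Cdk4 was 0.14 without E12.5 WT M2 (adjusted p = 0.0949) and 0.16 without E16.0 WT F2 (0.109) or with no filter on low counts (0.0813), and it did not pass without the library block (0.29, 0.0735). The added definition kept all 4 stages. It called 9 members beside 55.8% of all genes, with Gadd45g at 2.64, Cdkn1c at 2.95, Cdkn1b at 0.41 and Cdk4 at 0.37 above, and Ccnd3 at -0.76, Ccnd1 at -0.54 and Ccnd2 at -0.36 below. Cdk6 and Cks1b were each higher by 0.15 there (adjusted p = 0.0204 and 0.0073 in edgeR), and Cdkn2c did not pass. Ccnd1, Cdk6, Cks1b and Cdkn2c had the opposite sign in the contrast as designed at 2 stages, where none of them passed.

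From Eomes-only to Neurod6-only cells without Top2a, nearly the whole set was lower. Gadd45g was 12.6-fold lower (-3.66 ± 0.10), Ccnd1 10.7-fold, Ccnd2 6.40-fold, Cdkn2c 6.21-fold and Cdk6 5.86-fold. Cks1b (-1.21), Ccnd3 (-1.03) and Cdk4 (-0.49) were lower by less. Ccnd2 in Neurod6-only cells stood between 68.2 and 193 CPM over all 16 libraries, and in Eomes-only cells between 610 and 961 CPM. Cdkn1c was the exception, higher by 0.94 ± 0.16 in Neurod6-only cells, although the difference was 0.04 in the overlapping sets and -0.10 under the added definition. Cdkn1b differed by 0.11 ± 0.09 and did not pass (adjusted p = 0.255), and was lower in Neurod6 cells in those 2 alternatives (-0.19 and -0.35, both past the test in edgeR). It was higher in Neurod6 cells and passed with no filter on low counts (0.25, adjusted p = 0.0225) and in het libraries (0.24, 0.0484), so its direction depended on the setting. In all, 9 members were called beside 63.7% of genes, with a median of -1.88 against 0.07 for all genes.

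Between Top2a-detected and undetected Sox2-only cells, Cdkn2c was 4.40-fold and Cks1b 2.38-fold higher with Top2a. Cdkn2c went from 21.7, 21.4, 22.0 and 16.8 CPM without to 55.2, 47.7, 52.1 and 39.6 with Top2a at E12.5, and from 22.2, 36.5, 15.8 and 46.4 to 169, 303, 215 and 178 at E17.5. No library of either stage overlapped between these sets. Ccnd1 (0.44), Cdk6 (0.43), Cdkn1b (0.42), Ccnd2 (0.39) and Cdk4 (0.19) were higher by less. Cdkn1c was 3.81-fold lower and Gadd45g 1.88-fold lower with Top2a, and Ccnd3 did not pass (0.06, adjusted p = 0.503 in edgeR), though it passed in the overlapping sets (0.23), under the added definition (0.18) and in het libraries (0.18). That made 9 members beside 49.1% of all genes. In Eomes-only cells, again at 2 stages, Cdkn2c (2.27 ± 0.30), Cks1b (1.37 ± 0.12), Cdk6 (1.04 ± 0.27) and Ccnd1 (0.70 ± 0.24) were higher and Gadd45g lower (-0.57 ± 0.15), 5 members beside 11% of genes. Ccnd1 did not pass without any 1 of 8 WT libraries (E12.5 M1, F1 or F2, E14.5 M1 or F2, E16.0 M2, F1 or F2), and was 0.39 without E16.0 M2 (adjusted p = 0.485 in edgeR). Cdk6 did not pass without E12.5 M1 (0.92, adjusted p = 0.0514) or F1 (0.81, 0.0917). In het libraries neither passed, Ccnd1 at 0.40 and Cdk6 at 0.69. Under the added definition 9 members were called beside 65.2% of genes. Cells with Top2a were also deeper, with median UMIs of 5947 to 12937.5 per library against 4002.5 to 8911 in Sox2-detected cells. With classes assigned after thinning cells to 2000 UMIs and leaving out shallower ones, Ccnd1 no longer passed in Sox2-only cells (0.16, adjusted p = 0.181) or Eomes-only cells (0.14, 0.625), nor Cdk6 in Eomes-only cells (0.47, 0.189).

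The gap between Eomes-only and Sox2-only cells without Top2a itself differed between E17.5 and E12.5 for 4 members, beside 13.5% of genes called. Gadd45g (-1.32 ± 0.27) and Cdkn1c (-3.45 ± 0.55) had a smaller lead in Eomes-only cells at E17.5. Cdk6 was lower in Eomes-only cells at E12.5 (14.6, 22.2, 15.04 and 6.80 CPM against 56.8, 34.2, 50.5 and 43.7) and overlapped with Sox2-only cells at E17.5 (101, 91.7, 124 and 110 against 89.9, 57.3, 73.7 and 110), a change in the gap of 2.14 ± 0.43 (adjusted p = 0.000143 in edgeR). The Eomes-only values of Cdk6 rest on 4 to 9 UMIs per library at E12.5 and 17 to 24 at E17.5. Ccnd3 changed by 1.33 ± 0.37, but Eomes-only WT F2 of E17.5 stood at 125 CPM where the other 3 lay between 19.5 and 38.2, on 3 to 25 UMIs per library. Without that library the change was 0.72 and did not pass (adjusted p = 0.353). In het libraries Ccnd3 changed by 1.16 and did not pass (adjusted p = 0.0632). Cdk4 did not pass as designed (0.32, adjusted p = 0.0661 in edgeR). It passed with DESeq2 (0.35, adjusted p = 0.0109), RLE scaling (0.36), no filter (0.46), thinned classes (0.35), het libraries (0.55), the overlapping sets (0.20), the added definition (0.46) and without any 1 of 13 WT libraries (0.33 to 0.41). For Top2a-detected cells the change of the gap could be fitted under the added definition alone, where 5 members were called beside 13.7% of genes, namely Gadd45g (-3.26), Cdkn1c (-2.01), Cdk6 (2.08), Ccnd1 (-0.83) and Cdk4 (0.28).

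**Figure D3:**
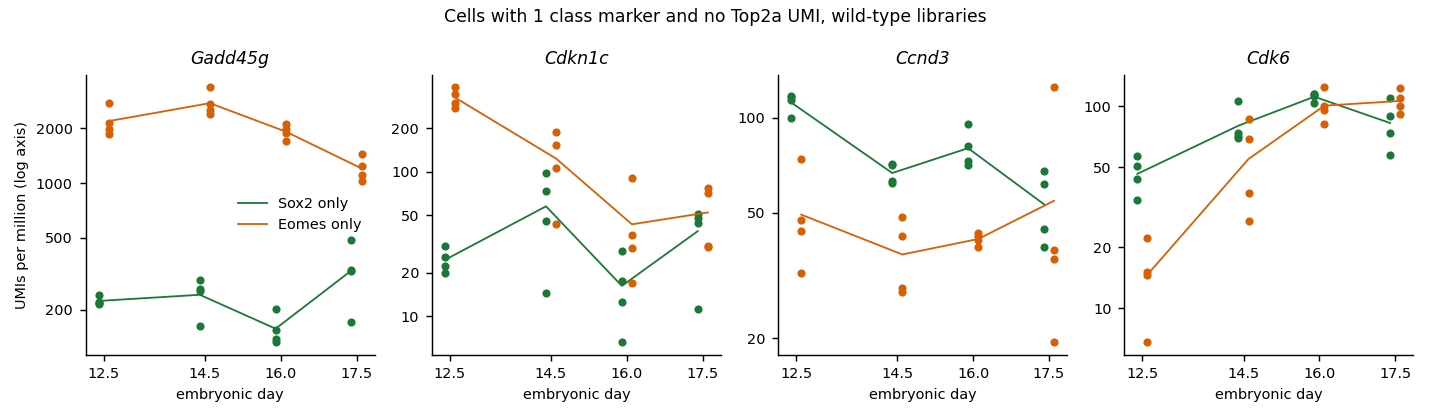
Levels of 4 genes in CPM, on a log axis, in Sox2-only and Eomes-only cells without Top2a, against embryonic day in WT libraries. Points are libraries and lines join means of 4, and the lines for Gadd45g stay apart at every stage while the E17.5 libraries of Cdkn1c and Cdk6 overlap.

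The third comparison was Chd8 het against WT. Averaged over the 4 stages, no member was called in any of the 6 sets, and 3 of the 60 values had an unadjusted p under 0.05. Between 850 and 1272 of the 11153 to 14141 genes tested per set had one too. The log2 difference lay between -0.24 and 0.27, and the smallest adjusted p was 0.404 in edgeR. Few genes of any kind were called in that average. The share was 0.0476% in Sox2-, 0.177% in Eomes- and 0.141% in Neurod6-detected cells without Top2a, and 0.418%, 0.206% and 0.167% in those with it. A test of whether the genotype difference was equal at the 4 stages called no member and 0% of genes, with 6 of 60 member values at an unadjusted p under 0.05. Over all genes tested, between 435 and 915 per set lay under that value in this test. The 3 averaged values with an unadjusted p under 0.05 were Gadd45g (0.27, higher in 11 of 16 pairs) and Ccnd1 (-0.24, higher in 4 of 16) in Neurod6-detected cells with Top2a, and Cks1b (-0.16) in Neurod6-detected cells without it. Without het M2 of E12.5, Gadd45g (0.35, adjusted p = 0.0244) and Ccnd1 (-0.33, 0.0489) were called in Neurod6-detected cells with Top2a in edgeR. The share of all genes called in the average without that library is not given here.

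**Figure D4:**
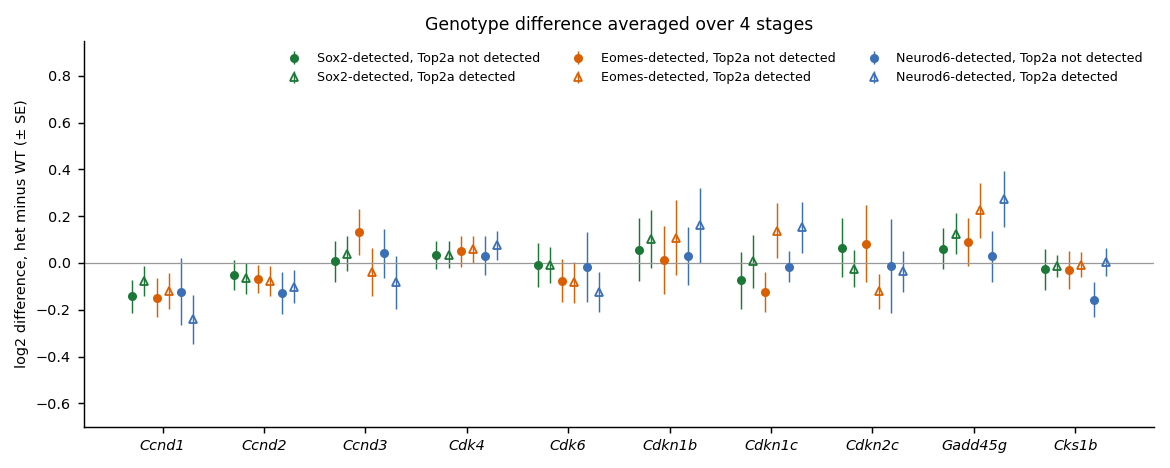
Log2 difference of Chd8 het minus WT averaged over the 4 stages, with its standard error, for each gene in each of the 6 cell sets. The points lie between -0.24 and 0.27.

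Stage by stage no member was called either. At E12.5 the share of genes called was 0.0872% in Sox2-, 0.0887% in Eomes- and 0.0354% in Neurod6-detected cells without Top2a, and 2.31%, 0.179% and 0.535% in those with it. It was 0% in all sets at E14.5. At E16.0 it was 0.0158% in Sox2- and 0.00836% in Neurod6-detected cells with Top2a, at E17.5 0.00897% in Eomes-detected cells with Top2a, and 0% in the other sets. Unadjusted p values under 0.05 numbered 9 of 60 at E12.5, 1 at E14.5, 0 at E16.0 and 3 at E17.5. Over all genes tested, they numbered 1777 of 12614, 1636 of 12402 and 1639 of 14141 in Sox2-, Eomes- and Neurod6-detected cells without Top2a at E12.5. With Top2a they numbered 2420 of 12694, 1294 of 11153 and 1596 of 11956. Later they numbered 176 to 567 genes per set at E14.5, 166 to 490 at E16.0 and 502 to 789 at E17.5.

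Gadd45g at E12.5 came closest to the threshold. In Neurod6-detected cells with Top2a the het libraries M1, M2, F1 and F2 stood at 1871, 578, 1812 and 1582 CPM and the WT libraries at 1032, 609.5, 811 and 830. Eomes-detected cells with Top2a gave 3149, 1087, 3752 and 2535 against 1739, 1294, 1461 and 1579, and those without Top2a gave 2460, 1022, 2743 and 2006 against 1524, 1175, 1192 and 1305. Neurod6-detected cells without Top2a gave 1318, 642, 1381 and 1117 against 850, 638, 752 and 753. In each of these sets 3 het libraries lay above all 4 WT libraries, and het M2 lay below or among them. The log2 differences were 0.97 ± 0.24, 0.91 ± 0.24, 0.73 ± 0.21 and 0.64 ± 0.22, with adjusted p of 0.0505, 0.0681, 0.114 and 0.237 in edgeR. Sox2-detected cells without Top2a, at 654, 510, 714 and 547 against 570, 447, 461 and 423 CPM, gave 0.42 ± 0.17. Those with Top2a stood at 565, 339, 426 and 377 against 405, 338, 356 and 330 CPM. The het library was the higher in each same-named pair of both Sox2-detected sets and of Neurod6-detected cells without Top2a. In the other sets it was the lower in the M2 pair.

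**Figure D5:**
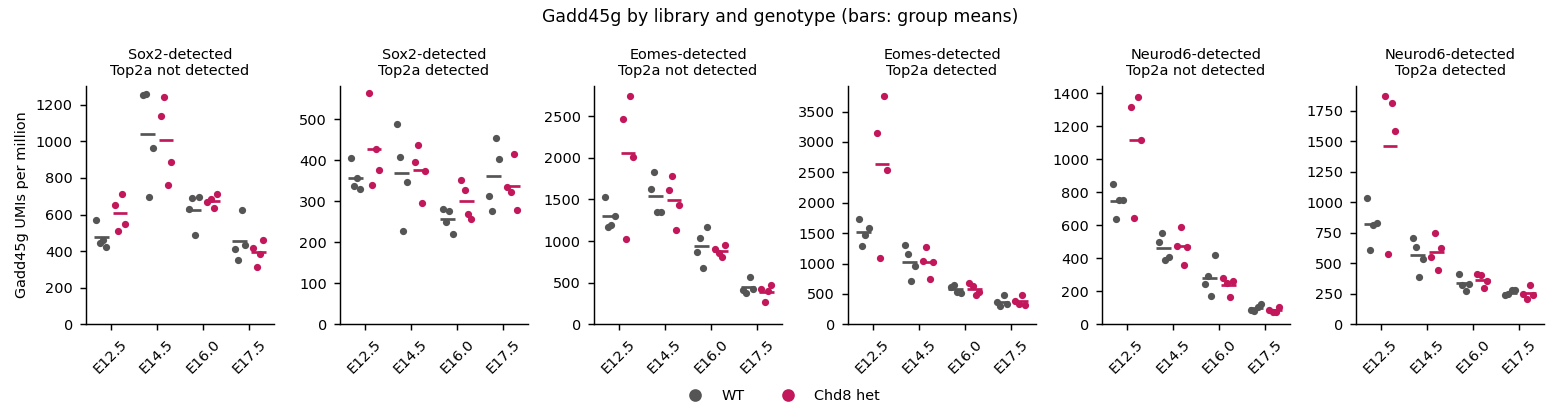
Gadd45g in CPM for each WT and Chd8 het library by embryonic day, in the 6 cell sets, with each bar at the mean of 4 libraries. At E12.5 het M1, F1 and F2 stand above the WT libraries in the Eomes- and Neurod6-detected sets and het M2 does not.

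The call for Gadd45g depended on how the pairs and het M2 entered, and on other settings too. In Neurod6-detected cells with Top2a it passed in edgeR with RLE scaling (0.99, adjusted p = 0.0394) and no filter on low counts (0.92, 0.0265). It also passed there without E14.5 WT F1 (0.97, 0.0461), E17.5 WT M1 (0.95, 0.0496) or E17.5 het M1 (0.98, 0.0476). No filter gave 0.85 (0.0201) in Eomes-detected cells with Top2a. With the replicate name as a block, taken to mark the matched pairs from the codes in the labels, Gadd45g was called in the first 5 of the 6 sets, at 0.83 (adjusted p = 0.0112), 0.76 (0.0184), 0.64 (0.0283), 0.58 (0.0340) and 0.40 (0.0436) in the order above. Cdkn2c was called with it in Sox2-detected cells without Top2a (0.49, adjusted p = 0.0445). At this age the correlation of the deviations of same-named libraries ran from 0.053 to 0.268 in Sox2-, 0.04 to 0.121 in Eomes- and 0.031 to 0.219 in Neurod6-detected cells without Top2a. With Top2a it ran from 0.178 to 0.406, -0.032 to 0.224 and 0.057 to 0.382. The block raised the calls over all genes as well, to 6.53%, 3.81% and 2.44% in Sox2-, Eomes- and Neurod6-detected cells without Top2a and to 15.5%, 3.3% and 4.91% with it. Without het M2 and without a block, Gadd45g was at 1.23 (adjusted p = 6.5e-05), 1.19 (7.95e-05), 0.97 (0.00108) and 0.85 (0.0165) in the first 4 of these sets. Other members were then called as well. Ccnd2 was lower in Eomes- and Neurod6-detected cells with Top2a (-0.41 and -0.46, adjusted p = 0.0404 and 0.0330 in edgeR), and Cks1b was higher there (0.28 and 0.39, 0.0456 and 0.0114). Ccnd1 was lower in Eomes-detected cells with Top2a (-0.46, adjusted p = 0.0197) and in Neurod6-detected cells without it (-0.92, 0.0311). With het M2 kept, the Ccnd2 difference at E12.5 lay between -0.29 and -0.19 in the 6 sets, overlapped in each and did not pass. Without it the share of all genes called was 6.31% and 4.26% in Eomes- and Neurod6-detected cells without Top2a, and 9.2% and 10.9% with it. DESeq2 called Gadd45g in the first 3 sets of that order, at 0.99 (adjusted p = 0.0034), 0.93 (0.00549) and 0.77 (0.0171). The share of all genes that DESeq2 called is not given here. In cells of exactly 1 class the differences were 1.18 and 0.76 in Neurod6 and Eomes cells with Top2a and 0.83 in each without it, and none passed the test.

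Depth and makeup moved with these libraries. Het M1, F1 and F2 had medians of 6090, 4155.5 and 6053.5 UMIs per cell and het M2 10561, beside 8627.5 to 10511.5 in WT. In Eomes-detected cells without Top2a the summed radial glia markers were 1461, 1185 and 1394 CPM in het M1, F1 and F2, 1799 in het M2, and 1525 to 1717 in WT. With Top2a the summed excitatory neuron markers of Eomes-detected cells were 2844, 2908 and 2726 CPM in het M1, F1 and F2, 2325 in het M2, and 2005 to 2421 in WT. In Neurod6-detected cells with Top2a they were 2988, 2902 and 2957, 2199, and 2085 to 2774 CPM in the same order. Without Top2a they overlapped with WT in Eomes-detected cells (4426, 4717 and 4111, 5369, and 4408 to 4854). In Sox2-detected cells without Top2a they were lower in these 3 het libraries (702, 641 and 681, 1771, and 853 to 1110). Red cell markers in Eomes-detected cells without Top2a summed to 36.2, 194 and 4006 CPM in het M1, F1 and F2, 10517 in het M2, and 178 to 8740 in WT. With classes assigned after thinning cells to 2000 UMIs, the differences of Gadd45g in the Eomes- and Neurod6-detected sets lay between 0.46 and 0.67, with adjusted p from 0.185 to 0.551 in edgeR. Cells under 2000 UMIs were left out there, 25 in het M1, 434 in het F1 and 0 in WT. The label codes of the M2 pair at E12.5 also begin differently from those of the other 3 pairs, in both genotypes. Which of these carries the difference was not tested.

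Other members gave single low p values that the adjustment did not keep. Ccnd1 was lower in the het library of 4 of 4 pairs in Sox2-detected cells without Top2a at E17.5 (mean 56.3 against 74.9 CPM, log2 -0.44, adjusted p = 0.969), in Eomes-detected cells without Top2a at E17.5 (23.7 against 34.4 CPM, -0.58) and in Eomes-detected cells with Top2a at E14.5 (54.1 against 78.6 CPM, -0.53). Cks1b in Neurod6-detected cells without Top2a at E17.5 was lower in 4 of 4 pairs too (48.7 against 63.5 CPM, -0.43). The pairs of E17.5 include F1, whose het library did not have the lower Chd8 (70.6 against 61.2 CPM in WT F1). The correlation of the deviations of that pair ran from -0.077 to 0.12 over the 6 sets. At E12.5 Cdkn2c was higher by 0.50 in Sox2- and by 0.83 in Eomes-detected cells without Top2a. None of these passed edgeR's test after adjustment over all genes without a block, and the first of the Cdkn2c values passed with it, as given above.

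Around the 10 genes stood 36 others of the G1 and cell cycle machinery in 5 lists, of which 34 were tested (35 in Sox2-detected cells with Top2a). None was called for genotype averaged over stages in any set. From E12.5 to E17.5 in WT, 24 fell and 6 rose in Sox2-detected cells without Top2a, beside 59.5% of all genes called, led by Ccne1 (-2.76), the cyclin of the G1 to S step, Ccna2 (-1.96), Cdk1 (-1.84) and Skp2 (-1.64), which acts together with Cks1b. In Sox2-detected cells with Top2a 13 rose and 7 fell (52% of all genes called), with the INK4 inhibitor Cdkn2d at 1.5, Ccng2 at 1.11, Gadd45a at -1.43 and Mycn at -1.03. Eomes-detected cells gave 4 risen and 15 fallen without Top2a (47.8% of all genes) and 7 and 9 with it (38.8%). Neurod6-detected cells gave 3 and 21 without (56.7%) and 8 and 9 with it (41%). Gadd45a, a close relative of Gadd45g, fell in all 4 of these sets by 2.28 to 3.05 on the log2 scale (-2.32, -2.39, -3.05 and -2.28). Cdkn1a (p21) fell in Eomes- and Neurod6-detected cells without Top2a (-4.01 and -3.73).

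Between classes, Eomes-only cells without Top2a had 7 of the 34 higher and 18 lower than Sox2-only cells, with Btg2, an antiproliferative gene of committed progenitors, at 1.98 and Gadd45a at 1.56 above, and Ccna2 at -1.58 and Ccnb1 at -1.57 below, where 32.8% of all genes were called. With Top2a 3 were higher and 7 lower (13.1% of all genes), and Btg2 was at 2.08 and E2f1 at 1.71. Neurod6-only cells had 23 lower and 6 higher than Eomes-only cells, beside 63.7% of all genes, led by Cdk2 (-3.01) and Btg2 (-2.81). With Top2a against without, 22 were higher and 3 lower in Sox2-only cells (49.1% of all genes), among them Cdk1 (3.11), Ccnb1 (2.32) and E2f8 (2.29), and 17 were higher and 1 lower in Eomes-only cells (11%). The gap between Eomes-only and Sox2-only cells changed from E12.5 to E17.5 for 6 of them, 3 in each direction, beside 13.5% of all genes, with Cdkn1a at -4.01 and Ccne1 at 2.08.

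The genes most like each member were taken by Pearson's r of log2 levels over the 24 WT means (4 stages in 6 sets) among 6254 genes. These means share cells and libraries, so r is a description. Cks1b was most like Birc5 (0.997) and Ccna2 (0.996), and Cdkn2c most like Hist1h1b (0.990) and Neil3 (0.988), genes of mitosis, histone supply and DNA repair. Gadd45g had looser neighbours, Polr2g (0.898) and the proneural factor Neurog1 (0.897). Ccnd2 was nearest to Msn (0.964), Ccnd1 to Rps27l (0.969), Ccnd3 to Rpl7l1 (0.973), Cdk4 to Gtf2e2 (0.939), Cdk6 to Rsrc1 (0.961), Cdkn1b to Hmbox1 (0.969) and Cdkn1c to Fscn1 (0.943).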

How the data were processed

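Single-cell RNA was measured in 32 libraries of mouse dorsal telencephalon, and the authors deposited UMI counts per gene and barcode, whole numbers that are not normalised. The submitters' processing notes name STAR 2.7.9a, STARsolo, Cell Ranger and build mm10, and whether counting used strand is not given in the sources used here. Of 145082 barcodes, 143697 passed minimums of 1000 UMIs and 500 genes and a ceiling of 10% mitochondrial UMIs. Doublets were scored from simulated pairs (0.5 per cell, 2000 variable genes, 30 principal components, 20 neighbours) and 5471 cells were removed at an assumed 0.8% per 1000 cells.

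UMIs were summed per library and cell set, with at least 20 cells each, and scaled to CPM. Genes were tested with edgeR 4.0.16 in R 4.3.3 (TMM scaling, filterByExpr, quasi-likelihood test, Benjamini-Hochberg adjustment over all genes tested, threshold 0.05). Values after ± are standard errors of log2 differences unless marked SD. Genotype and stage were fitted over all 32 libraries in 1 model per cell set. Cell classes were fitted over 16 WT libraries with the library as a block. Scripts were tested on simulated data. Alternatives were DESeq2 1.42.0, RLE scaling, no filter, other definitions of the cell sets, the replicate block, het in place of WT libraries, and leaving out libraries. Intervals cover counting error only.

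Per the labels and the design text, WT and het embryos were matched by litter and sex. The label codes of a WT and a het library with the same replicate name began alike in all 16 pairs, so the name was taken as the pair, although the labels do not state this outright. Over 96 combinations of pair and cell set, the correlation of same-named deviations ran from -0.077 to 0.727, was over 0.1 in 77 and was highest with the library's own partner in 60. Positions are from GENCODE on GRCm38 (99.6% of 32285 identifiers found), promoters from RefSeq. All 10 members are named, and of the other listed genes at most 4 per comparison, those with the largest log2 difference past the test, given a log2 CPM of 3 or more on average. The nearest genes of each member were sought among genes with a mean CPM of at least 20, on log2(CPM + 1). The members and lists were chosen with earlier results of these data known.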

Additional observations from a re-analysis of the deposited data

Results flagged for a closer look

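Among 480 groups of 4 libraries (10 genes, 6 cell sets, 8 groups), 18 held a library farther from the others than Dixon's 95% critical value for 4 samples allows, or 3.75%, where chance gives about 1 in 20. For Ccnd2, WT F2 at E17.5 stood at 965 CPM in Eomes-detected cells with Top2a, against 1036 to 1040 in the other 3. Ccnd3 gave 4 such values. It stood at 61.4 CPM in WT F1 at E16.0 in Sox2-detected cells with Top2a, against 70.3 to 72.0. In Eomes-detected cells with Top2a it stood at 74.1 CPM in het M2 at E12.5, against 39.9 to 45.1, and at 50.2 CPM in het M2 at E14.5, against 36.8 to 38.0. In WT M2 at E14.5 it stood at 58.7 CPM in Neurod6-detected cells with Top2a, against 50.7 to 51.6. Cdk4 in het M2 at E12.5 stood at 1326 CPM in Sox2-detected cells without Top2a, against 1127 to 1146, and at 1316 CPM with Top2a, against 1102 to 1112. In het F2 at E16.0 it stood at 1292 CPM in Eomes-detected cells with Top2a, against 1404 to 1423. Cdk6 in WT F1 at E14.5 stood at 67.3 CPM in Eomes-detected cells without Top2a, against 39.9 to 43.3, and at 26.0 CPM in Neurod6-detected cells without Top2a, against 13.2 to 14.7. In het M1 at E17.5 it stood at 337 CPM in Eomes-detected cells with Top2a, against 251 to 260.

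Cdkn1b in WT M1 at E17.5 stood at 175 CPM in Neurod6-detected cells without Top2a, against 76.3 to 91.7. Cdkn1c stood at 318 CPM in het M1 at E12.5 in Neurod6-detected cells without Top2a, against 279 to 285. In Neurod6-detected cells with Top2a it stood at 207 CPM in WT M1 at E12.5, against 151 to 157, and at 41.2 CPM in WT F2 at E16.0, against 57.7 to 60.3. Cks1b stood at 165 CPM in het F2 at E14.5 in Eomes-detected cells without Top2a, against 124 to 128. In Eomes-detected cells with Top2a at E12.5 it stood at 599 CPM in WT M1, against 532 to 541, and at 471 CPM in het M2, against 603 to 611.

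The log2 difference between Eomes-only and Sox2-only cells without Top2a changed from E12.5 to E17.5, by the test of the change itself, by -1.32 for Gadd45g, -3.45 for Cdkn1c, 1.33 for Ccnd3 and 2.14 for Cdk6.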

How the results depend on the processing

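Of the results of single genes under alternatives other than leaving out a library, 1061 kept their direction and side of the threshold, 75 passed it newly, 44 no longer passed and 40 changed sign. Some sign changes concern differences near 0, and others passed edgeR's test with the opposite sign. Among the latter were Gadd45g by stage in Sox2-only cells with Top2a (1.26) and Ccnd1 between Eomes and Sox2 cells with Top2a (-0.45 and -0.54). Cdkn1b between Neurod6 and Eomes cells without Top2a (-0.19 and -0.35) was another. So were Cdk6 (0.15) and Cks1b (0.11 and 0.15) between Eomes and Sox2 cells with Top2a. The cause was not tested in any of them. The count of members called for genotype at E12.5 was 0 as designed. It was 2 in Sox2-detected cells without Top2a under the replicate block, and 1 in both Eomes- and both Neurod6-detected sets. DESeq2 gave 1 in Eomes-detected cells without Top2a and 1 in each of the Eomes- and Neurod6-detected sets with Top2a. No filter on low counts gave 1 in each of these last 2, RLE scaling gave 1 in Neurod6-detected cells with Top2a, and so did leaving out the 3 E17.5 libraries that stood apart (chosen after seeing the data). For DESeq2, no filter, RLE scaling and those 3 libraries left out, the share of all genes called at E12.5 is not given here. These counts of members therefore cannot be read against it. The replicate block changed no other call. Leaving out 1 library gave 0 to 1, 0 to 4, 0 to 2 and 0 to 3 in Eomes without and with Top2a and Neurod6 without and with Top2a, and 0 to 2 for the average over stages in Neurod6-detected cells with Top2a. Each upper end came from the fit without het M2 of E12.5. In that fit the share of all genes called at E12.5 was 6.31%, 9.2%, 4.26% and 10.9% in the same order of sets. For the average, and for other libraries left out, the share is not given here.

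For stage, requiring 2 UMIs of the class marker gave 5 called members in Neurod6-detected cells with Top2a in place of 8, beside 34.2% of all genes in place of 41%. In cells of exactly 1 class the E17.5 minus E12.5 difference turned to 0.45 for Cdkn1c and 0.31 for Gadd45g in Sox2 without Top2a, to 1.26 for Gadd45g and 0.0089 for Cks1b in Sox2 with Top2a, to -0.012 for Ccnd2 and 0.16 for Ccnd3 in Eomes without Top2a, and to 0.30 for Ccnd1, -0.026 for Ccnd2 and 1.3e-05 for Cks1b in Neurod6 with Top2a. Thinned classes gave 0.065 for Gadd45g in Sox2 without Top2a, 0.043 for Cks1b in Sox2 with Top2a and -0.012 for Ccnd2 in Eomes without Top2a. At least 2 UMIs of the marker gave 0.19 and 0.23 for Gadd45g in Sox2 without and with Top2a. Het libraries gave -0.11 and -0.29 for Cdkn2c in Sox2 and Neurod6 without Top2a. Without the 3 E17.5 libraries Cks1b in Sox2 with Top2a was at 0.0033, and it ran from -0.065 to 0.015 over single libraries left out.

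For classes without Top2a, het libraries called 5 members between Eomes and Sox2 in place of 8, beside 27.9% of all genes in place of 32.8%, and put Ccnd1 at 0.00058, and Ccnd1 ran from -0.14 to 0.038 over single libraries. Between Neurod6 and Eomes, Cdkn1b turned to -0.19 in sets with shared cells, -0.35 under the added definition and -0.037 with thinned classes, and Cdkn1c to -0.096 under the added definition. For Eomes against Sox2 with Top2a, sets with shared cells called 8 members and the added definition 9 in place of 4, beside 50% and 55.8% of all genes in place of 13.1%. Ccnd1 turned to -0.45 and -0.54 there, Cdkn2c to 0.048 and 0.083 and Cks1b to 0.11 and 0.15, and Cdk6 to 0.15 under the added definition. Thinned classes gave 0.29 for Cdkn2c and 0.13 for Cks1b, and het libraries -0.10 for Cdkn1b. For Top2a detected against not in Eomes cells, shared sets and the added definition called 9 members beside 67.1% and 65.2% of all genes, het libraries 3 beside 8.38%, and single libraries left out 3 to 5. Thinned classes put Ccnd3 at -0.070 in Sox2 and -0.060 in Eomes cells, and over single libraries Ccnd3 ran from -0.0036 to 0.095 and from -0.39 to 0.24. Het libraries gave -0.11 for Cdkn1b in Eomes cells. For the change of the gap between Eomes and Sox2, shared sets and the added definition called 9 members in place of 4, beside 35.3% and 39.7% of all genes in place of 13.5%, and put Ccnd1 at 0.21 and 0.26. Ccnd2 was at -0.019 with no replicate block and -0.012 with no doublet removal, Cks1b at -0.15 with thinned classes. Over single libraries Ccnd1 ran from -0.49 to 0.095 and Ccnd2 from -0.12 to 0.23.

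Eomes-only cells with Top2a numbered 6 to 13 per WT library at E14.5 and 3 to 8 at E17.5, under the minimum of 20, so the change of the gap with Top2a was not run as designed. Levels of Cdkn2c in Neurod6-only cells rest on a few CPM.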
